A study of Mus musculus with 18 samples.

Results

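The heat response of SSBP1 knockdown cells was compared with that of scrambled RNA-treated cells, gene by gene, on 12 of the 18 arrays of the series. All cells were immortalized mouse embryonic fibroblasts (MEF cells, ICR background) infected with an adenovirus, which carried short hairpin RNA against mouse SSBP1 in SSBP1-KD cells and scrambled RNA in SCR cells, with 2 h of contact and 70 h in normal medium. Each kind of cell either received 1 h at 42 °C in a water bath (HS) or stayed untreated at 37 °C (Cont), with 3 arrays for each of the 4 groups. A further 6 arrays of HSF1-KD cells, 3 HS and 3 Cont, served to choose heat-responsive genes and entered the estimate of the spread. The heat response difference of a gene is its HS minus Cont change in SSBP1-KD cells less its HS minus Cont change in SCR cells, on the log2 scale. Since it equals the SSBP1-KD minus SCR difference in HS less the same difference in Cont, a smaller response can come with a lower heat-shocked level, with a higher control level, or with both, and these were separated for all 19936 measured genes. Knockdown by virus in a single immortalized line limits the cells as a model. The labels do not state whether the 3 arrays of a group came from separate cultures, so p-values refer to the spread among these arrays, and that spread may be technical.

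Heat shock activates HSF1, a transcription factor that binds heat shock elements, arrays of inverted GAA units, and raises chaperone genes whose products hold, refold or sort unfolded proteins. In parallel, heat and other stresses activate MAP kinases, which raise immediate-early transcription factor genes such as Fos and Egr2 and, soon after, genes of the phosphatases that switch MAP kinases off. SSBP1 is known as the single-stranded DNA-binding protein of mitochondrial DNA replication. The question of the arrays, as the study put it, was which heat-inducible genes depend on HSF1 together with SSBP1.

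The array medians lay between 7.88 and 7.94. Among arrays of 1 group the lowest correlation was 0.985, in SSBP1-KD Cont, where replicate 1 stood apart with a mean absolute residual of 0.152 log2 units. The 10 fibroblast markers averaged 11 in SSBP1-KD HS against 11.41 in SCR HS, and 11.02 in SSBP1-KD Cont against 11.44 in SCR Cont, while lists of epithelial, endothelial, blood, muscle and neural markers averaged 6.77 to 8.19. No marker of any list was called for the heat response difference, and the part of the lower fibroblast markers in the results was not tested. Ssbp1 RNA itself read 8.71, 8.57 and 8.67 in SSBP1-KD HS against 9.07, 9.09 and 9.03 in SCR HS, and 9.02, 9.25 and 9.32 in SSBP1-KD Cont against 9.54, 9.36 and 9.36 in SCR Cont. Its SSBP1-KD minus SCR difference was -0.41 in HS (adjusted p = 0.0015) and -0.22 in Cont (adjusted p = 0.0555), so the targeted RNA was reduced by a small amount on this probe set, and its next brightest probe set read -0.03 in HS (adjusted p = 0.826).

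At an adjusted p under 0.05 (limma), 98 genes had a heat response in SSBP1-KD that was unlike that in SCR, 0.492% of those tested, with a smaller value in SSBP1-KD for 62 (0.311%) and a larger value for 36 (0.181%). At an unadjusted p under 0.05 the count was 2002 genes. With 1 array left out in turn, 33 to 83 genes were smaller and 10 to 38 larger. With every array's median set to 1 value the split was 49 smaller and 48 larger, and among the probe sets brighter than the median one 127 smaller and 126 larger. All 62 genes with a smaller value rose with heat in SCR. In SSBP1-KD 35 of them rose, 2 fell and 25 did not pass the test, and the median heat effect was 0.27 in SSBP1-KD and 0.89 in SCR. Of the 36 genes with a larger value, 32 fell with heat in SCR and 4 did not pass, and in SSBP1-KD 9 fell, 6 rose and 21 did not pass, with median heat effects of -0.04 in SSBP1-KD and -0.43 in SCR. The calls thus lay mostly on genes whose heat response in SCR cells, up or down, was nearer to 0 in SSBP1-KD cells. Heat raised 812 genes (4.07%) and lowered 562 (2.82%) in SSBP1-KD, against 1521 (7.63%) raised and 1663 (8.34%) lowered in SCR.

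**Figure D1:**
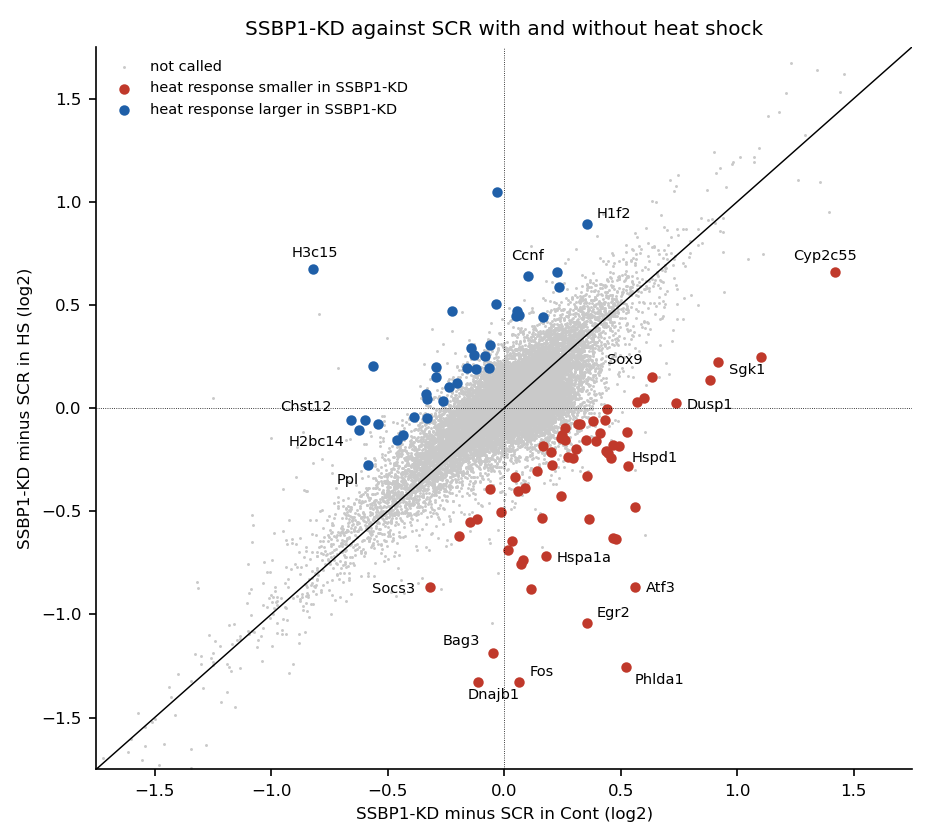
SSBP1-KD minus SCR in Cont (x axis, log2) and in HS (y axis, log2) for each gene, with genes of a smaller (red, 62) or larger (blue, 36) heat response in SSBP1-KD, and 19 genes beyond the axes left off. Genes on the diagonal differed equally at both temperatures, and the red genes spread from straight below 0, such as Fos and Dnajb1, to the right of 0 at an HS difference near 0, such as Dusp1.

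The 98 genes fell into classes by which level had changed. Of the 62 with a smaller value, 18 were lower in HS and not called in Cont, 20 were higher in Cont and lower in HS, and 21 were higher in Cont and not called in HS. A further 2 were lower at both temperatures and 1 was higher at both. Over all genes, SSBP1-KD was higher in HS for 14.3% and lower for 14.4%, and higher in Cont for 14.6% and lower for 16.5%, so that 28.7% were called in HS and 31.1% in Cont. The same arrays give the call and the class, so the classes describe the called genes and are no second test. The SSBP1-KD and SCR arrays did not overlap in HS for 81 of the 98 genes and in Cont for 81, where they did not overlap for 45.3% of all genes in HS and 44.2% in Cont. The share of the heat response difference that lies in Cont was computed for each gene as the Cont difference over the heat response difference, with its sign turned. Its median was 52.7% among the 62 genes (quartiles 14.6% and 73.2%). The class medians were 6.9% for the genes lower in HS only, 50.2% for those changed at both temperatures in opposite directions and 81.8% for those higher in Cont only. Among the 36 genes with a larger value, 13 were lower in Cont only (median share 88.8%), 12 were higher in HS only (11.3%), 4 were lower in Cont and higher in HS (50%), 4 were higher at both and 3 were lower at both.

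Chaperone genes made up a large group with a smaller value. The lists of HSP70 and HSP110, HSP40, small heat shock and BAG, HSP90, and mitochondrial chaperones and proteases held 73 measured genes. Of these, 14 had a smaller value and 0 a larger one, where 0.311% and 0.181% of all genes did. Heat raised these 14 genes by 1.16-fold to 10.7-fold in SSBP1-KD and by 1.57-fold to 19.9-fold in SCR, and their median SSBP1-KD response was 40.6% of the SCR response on the log2 scale. In HS 13 of the 14 were lower in SSBP1-KD, and in Cont 9 were higher and 5 not called. Over all genes 14.4% were lower in HS and 14.6% higher in Cont, but the call itself favours these directions. Among all members, 4 HSP70 and HSP110 genes were lower in HS and 1 higher, and 4 HSP40 genes were lower and 4 higher. For small heat shock and BAG genes the counts were 3 lower and 4 higher, and for HSP90 genes 4 and 2. On the mitochondrial list 2 were lower and 7 higher. With each array left out in turn, 13 of the 14 were called in all 12 fits, and Ahsa1 in 6. The medians over all members were small, beside -0.005 over all genes. They were -0.13 for 10 HSP70 and HSP110 genes, -0.06 for 12 HSP40 genes and 0.03 for 14 small heat shock and BAG genes. For 15 HSP90 genes and 22 mitochondrial chaperone and protease genes they were -0.11 and 0.04. Heat raised 5, 4, 4, 7 and 2 members of these 5 lists in SCR, where it raised 7.63% of all genes. It lowered 5 on the mitochondrial list and 0 on the others, where it lowered 8.34% of all genes.

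The windows around the starts of several of these genes hold inverted GAA units, the building units of heat shock elements. They are shown because HSF1 is known to bind such elements. In RefSeq windows of 250 bases before to 50 bases after each start (GRCm38.p6), 15614 measured genes and 71 of the 98 called genes had a window. The letters GAANNTTC or TTCNNGAA are each their own reverse complement, so that both strands are covered. A gene counted if any of its windows held them, which was so for 15.4% of the 15614 genes. The extension to 3 alternating units at the same spacing, which contains the shorter motif, occurred in 0.564% of these genes. Among called genes with a smaller value that were lower in HS, 14 of 30 held the shorter motif and 2 the longer one. Of those higher in Cont only, 3 of 15 held the shorter motif, as did 3 of 25 genes with a larger value. In the following stretches, read 5′ to 3′ on the strand of the gene, capitals mark the GAA and TTC units.
Hsph1 (chr5:149636283-149636305, minus strand): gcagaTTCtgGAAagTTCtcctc
Hspd1 (chr1:55088054-55088081, minus strand): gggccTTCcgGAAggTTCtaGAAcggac
Hspe1 (chr1:55088054-55088081, plus strand): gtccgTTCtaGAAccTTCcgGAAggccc
Hspa1a (chr17:34972248-34972265, minus strand): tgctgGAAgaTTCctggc
Bag3 (chr7:128523620-128523632, plus strand): gaccaGAAgtTTC
Hspb1 (chr5:135887797-135887814, plus strand): caagaGAAgtTTCcagat
Dnajb4 (chr3:152193847-152193864, minus strand): cgctgTTCtaGAAagtac
Dnaja4 (chr9:54699464-54699481, plus strand): tccgcGAAcgTTCtgggc
Hspd1 and Hspe1 lie head to head and share 1 element of 4 units, read here from either strand. Hsph1 holds 3 units, and the other stretches hold a single pair. A pair, alone or within a longer run, occurred in 15.4% of all genes with a window. The stretches of Hsph1 and Bag3 lie after the start. Dnajb1 and Fos had no such pair in their windows. No stretch was found for Phlda1, Atf3, Hsp90aa1 or Hspa4l either, where a missing match was not told apart from a missing window. Dnaja1, Hspb8 and Egr2 held a single pair that is not printed. A match describes letters in the window and says nothing on binding in these cells.

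Hspa1a, which encodes the inducible HSP70, had the largest heat response of these genes in both kinds of cell. It read 12.11, 12.08 and 12.20 in SSBP1-KD HS against 12.79, 12.85 and 12.90 in SCR HS, and 8.85, 8.68 and 8.61 in SSBP1-KD Cont against 8.42, 8.63 and 8.54 in SCR Cont. The HS arrays did not overlap, with SSBP1-KD lower, and the Cont arrays overlapped. Heat raised Hspa1a 10.7-fold in SSBP1-KD and 19.9-fold in SCR, a heat response difference of -0.90 (standard error 0.09, adjusted p = 2.91e-04). Near-identical Hspa1b can contribute to this probe set, so the value may stand for both copies. Hsph1, the HSP110 that acts as nucleotide exchange factor of HSP70, read 12.24, 12.28 and 12.25 in SSBP1-KD HS against 12.83, 12.90 and 12.95 in SCR HS, and 10.84, 11.01 and 10.96 in SSBP1-KD Cont against 10.52, 10.60 and 10.26 in SCR Cont. SSBP1-KD was lower on all HS arrays and higher on all Cont arrays, and the heat response difference was -1.12 (standard error 0.10, adjusted p = 1.43e-04), of which 42.9% lay in Cont. Hspa4l, a relative of HSP110, had -0.70 with 65.6% in Cont. Hspa8, the constitutive HSP70, had -0.11 (adjusted p = 0.583).

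The HSP40 co-chaperones, which hand unfolded proteins to HSP70 and stimulate its ATPase, divided between both kinds of change. Dnajb1 read 11.41, 11.54 and 11.49 in SSBP1-KD HS against 12.67, 12.85 and 12.91 in SCR HS, and 9.67, 9.74 and 9.82 in SSBP1-KD Cont against 9.88, 9.85 and 9.83 in SCR Cont. Its Cont level was not called and lay slightly below SCR, while its HS level was -1.33 relative to SCR, so that the heat response difference of -1.22 (standard error 0.10, adjusted p = 4.85e-05) lay in the HS level. Dnajb4, in contrast, read 11.21, 11.15 and 11.24 in SSBP1-KD HS against 11.67, 11.90 and 11.92 in SCR HS, and 10.74, 10.90 and 10.80 in SSBP1-KD Cont against 10.38, 10.38 and 10.28 in SCR Cont. Its difference of -1.10 (standard error 0.09, adjusted p = 4.21e-05) was made of -0.63 in HS and 0.47 in Cont. Dnaja4 (-0.90) and Dnaja1 (-0.67) were likewise higher in Cont and lower in HS, although the next brightest probe set of Dnaja1 put the change in HS (-1.09) and not in Cont (0.13, adjusted p = 0.447).

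Bag3, which couples HSP70 to small heat shock proteins and autophagy, read 10.66, 10.69 and 10.66 in SSBP1-KD HS against 11.75, 11.88 and 11.95 in SCR HS, and 9.83, 9.87 and 9.99 in SSBP1-KD Cont against 9.95, 9.96 and 9.92 in SCR Cont. All SSBP1-KD HS arrays lay below all SCR HS arrays and the Cont arrays overlapped, giving -1.14 (standard error 0.09, adjusted p = 4.21e-05). Hspb1, the small heat shock protein HSP25, rose 2.44-fold in SSBP1-KD and 4.34-fold in SCR with Cont levels that did not differ beyond their spread (0.07, adjusted p = 0.456). Hspb8, a small heat shock protein that works with Bag3, differed the other way round, with -0.28 in HS and 0.53 in Cont, so that 65.5% of its difference of -0.81 lay in Cont. The HSP90 gene Hsp90aa1 rose 1.28-fold in SSBP1-KD and 1.82-fold in SCR, a difference of -0.51 (adjusted p = 5.12e-04), with 53.6% in Cont. Its co-chaperones stood at opposite ends, with Fkbp4 lower in HS only (-0.54 in HS, -0.12 in Cont) and Ahsa1, an activator of the HSP90 ATPase, higher in Cont only (-0.08 in HS, 0.32 in Cont).

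The mitochondrial chaperone Hspd1 (HSP60) read 12.68, 12.66 and 12.62 in SSBP1-KD HS against 12.82, 12.84 and 12.85 in SCR HS, and 12.40, 12.49 and 12.45 in SSBP1-KD Cont against 12.04, 11.97 and 11.86 in SCR Cont. All 3 SSBP1-KD Cont arrays lay above all SCR Cont arrays, while the HS levels differed by -0.18 (adjusted p = 0.0142), so that 73.0% of the heat response difference of -0.67 (standard error 0.07, adjusted p = 2.91e-04) lay in Cont. On its next brightest probe set the HS difference did not pass (-0.16, adjusted p = 0.111), while the heat response difference did (-0.72, adjusted p = 0.00299). Hspe1 (HSP10), its partner in the folding cage, read 12.50, 12.64 and 12.52 in SSBP1-KD HS against 12.74, 12.70 and 12.76 in SCR HS, and 12.22, 12.32 and 12.41 in SSBP1-KD Cont against 12.15, 12.09 and 11.96 in SCR Cont. Its difference of -0.43 did not pass (adjusted p = 0.111, 95% interval -0.66 to -0.21), and its next brightest probe set gave -0.43 (adjusted p = 0.0322). Over its 24 alternatives the adjusted p of Hspe1 ranged from 0.0206 to 0.26. Hspa9, the mitochondrial HSP70, was higher in SSBP1-KD at both temperatures (0.21 in HS, 0.28 in Cont) with a heat response difference of -0.07 (adjusted p = 0.781). Of the 22 mitochondrial chaperones and proteases, Hspd1 alone was called. In Cont 8 were higher and 3 lower, where 14.6% and 16.5% of all genes were.

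**Figure D2:**
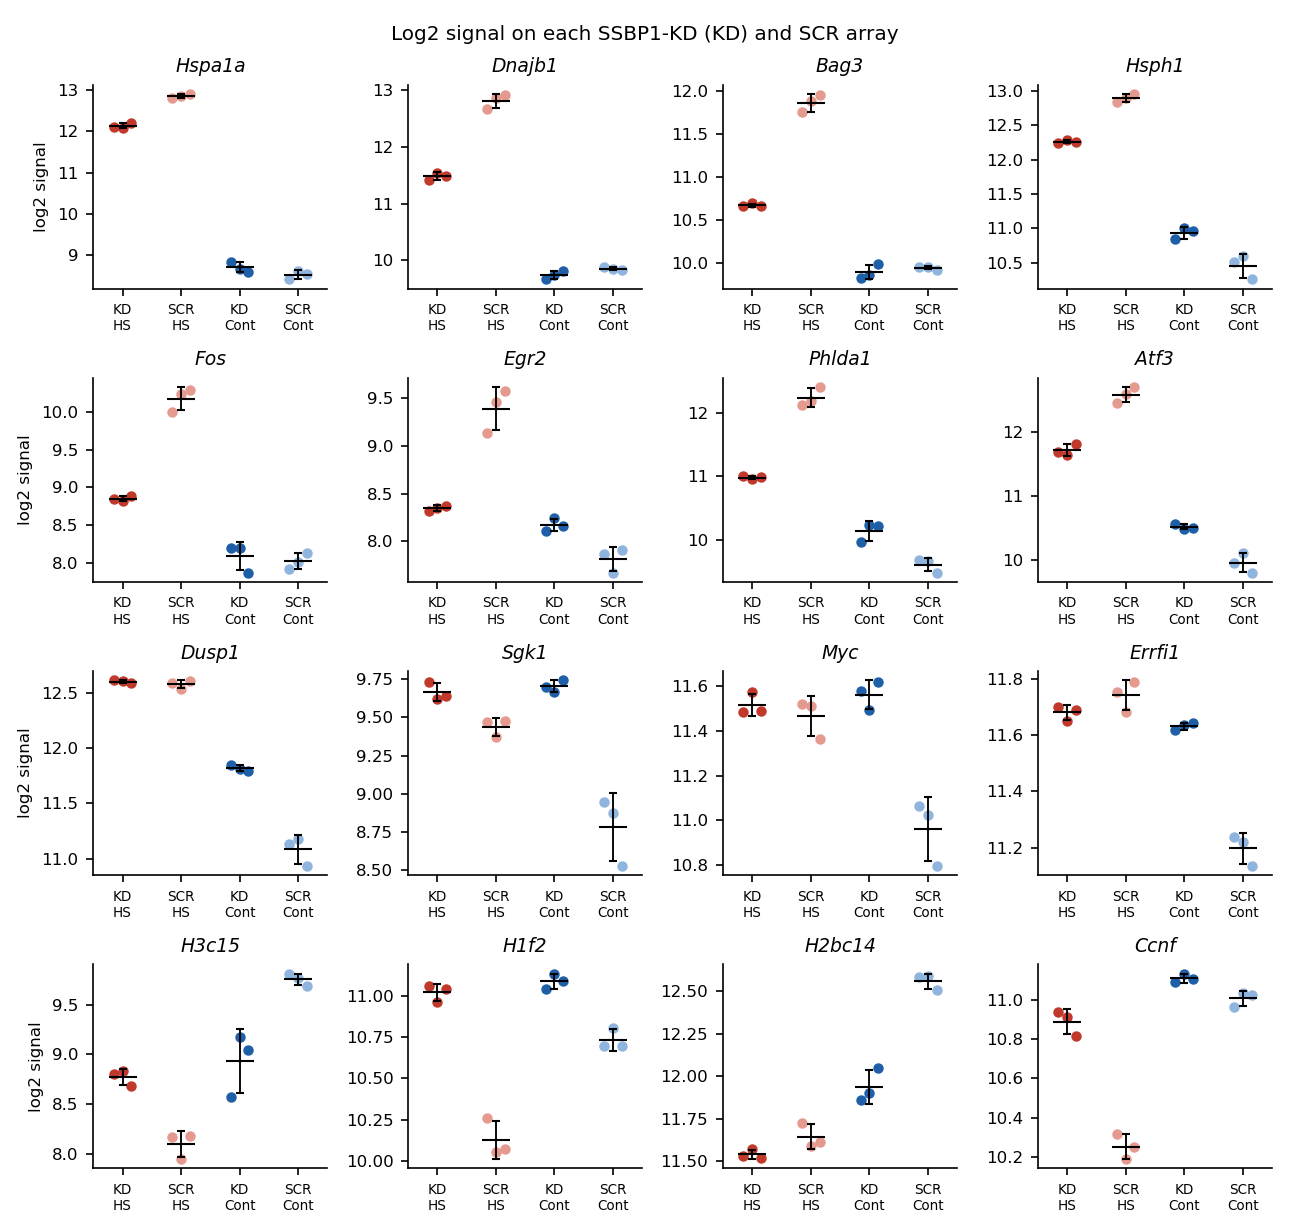
Log2 signal (y axis) on each array of SSBP1-KD HS, SCR HS, SSBP1-KD Cont and SCR Cont for 16 genes, with the mean and SD of 3 arrays in black. In the top 2 rows SSBP1-KD HS lies below SCR HS, in the third row the HS groups lie closer together than the Cont groups and SSBP1-KD Cont lies above SCR Cont, and in the bottom row the fall with heat seen in SCR is less in SSBP1-KD.

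Immediate-early genes held the 4 most negative values, those of Phlda1, Atf3, Egr2 and Fos. Of 37 measured, 10 had a smaller heat response in SSBP1-KD and 0 a larger one, where 0.311% and 0.181% of all genes did. Of the 37, 33 lay below 0, with a median of -0.24, beside -0.005 over all genes. In HS 20 of the 37 were lower in SSBP1-KD and 5 higher, where 14.4% and 14.3% of all genes were. In Cont 6 were lower and 16 higher, where 16.5% and 14.6% of all genes were. Phlda1, a stress-induced pleckstrin homology-like gene, had the most negative value of all genes, -1.78 (standard error 0.12, adjusted p = 2.22e-05). It read 11.01, 10.95 and 10.99 in SSBP1-KD HS against 12.12, 12.19 and 12.41 in SCR HS, and 9.96, 10.23 and 10.22 in SSBP1-KD Cont against 9.69, 9.67 and 9.49 in SCR Cont, and neither pair of groups overlapped. Atf3, a stress-induced transcription factor, read 11.68, 11.63 and 11.82 in SSBP1-KD HS against 12.45, 12.59 and 12.69 in SCR HS, and 10.56, 10.48 and 10.50 in SSBP1-KD Cont against 9.96, 10.10 and 9.80 in SCR Cont. Heat raised it 2.29-fold in SSBP1-KD and 6.18-fold in SCR, a difference of -1.43 (adjusted p = 4.21e-05).

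The AP-1 subunit genes Fos and Jun, in contrast, were called in HS only. Fos read 8.85, 8.82 and 8.88 in SSBP1-KD HS against 10.00, 10.24 and 10.29 in SCR HS, and 8.19, 8.19 and 7.87 in SSBP1-KD Cont against 7.92, 8.01 and 8.14 in SCR Cont. The 6 Cont arrays of Fos were mixed and the HS groups differed by -1.33, giving a heat response difference of -1.39 (standard error 0.14, adjusted p = 2.47e-04). For Jun the difference was -0.82 (standard error 0.07, adjusted p = 7.36e-05), with -0.74 in HS and 0.08 in Cont. Egr2, a zinc finger transcription factor, read 8.31, 8.35 and 8.37 in SSBP1-KD HS against 9.13, 9.46 and 9.57 in SCR HS, and 8.11, 8.24 and 8.16 in SSBP1-KD Cont against 7.87, 7.68 and 7.91 in SCR Cont. Its heat effect did not pass in SSBP1-KD (1.13-fold, against 2.97-fold in SCR), and 25.4% of its difference of -1.39 lay in Cont. Its relative Egr1 was lower in SSBP1-KD at both temperatures (-0.90 in HS, -0.43 in Cont), and its heat response difference of -0.47 lay just outside the threshold (adjusted p = 0.0511). Arc, an activity-regulated gene, had -0.99 (adjusted p = 0.0431), called in 2 of 12 fits with 1 array left out and not without SSBP1-KD Cont replicate 1. Rnd3, Trib1, Csrnp1 and Myc were the other immediate-early genes called, at -0.41, -0.48, -0.50 and -0.55.

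Genes of MAP kinase phosphatases and other feedback inhibitors also had smaller heat responses, and here the control level carried most of the difference, with a median share of 72.4% among those called. Of 17 measured, 7 had a smaller value and 0 a larger one (median -0.34), where 0.311% and 0.181% of all genes did. All 7 were higher in SSBP1-KD Cont, and 5 of the 7 were not called in HS. A higher Cont level itself favours a call for a smaller value, so these counts only describe the called genes. Of all 17, 12 were higher and 1 lower in Cont, where 14.6% and 16.5% of all genes were. In HS 6 of the 17 were higher and 5 lower, where 14.3% and 14.4% of all genes were. Dusp1, which dephosphorylates stress-activated MAP kinases, read 12.62, 12.61 and 12.59 in SSBP1-KD HS against 12.59, 12.54 and 12.61 in SCR HS, and 11.85, 11.81 and 11.80 in SSBP1-KD Cont against 11.13, 11.18 and 10.93 in SCR Cont. Its heat-shocked levels overlapped between SSBP1-KD and SCR, and all 3 SSBP1-KD Cont arrays lay above all SCR Cont arrays, so that 103.4% of the heat response difference of -0.71 (standard error 0.08, adjusted p = 6.50e-04) lay in Cont. Heat still raised it 1.72-fold in SSBP1-KD, against 2.82-fold in SCR. Errfi1, an inhibitor of the epidermal growth factor receptor, read 11.70, 11.65 and 11.69 in SSBP1-KD HS against 11.75, 11.68 and 11.79 in SCR HS, and 11.62, 11.63 and 11.64 in SSBP1-KD Cont against 11.24, 11.22 and 11.14 in SCR Cont. SSBP1-KD Cont was nearly at the heat-shocked level, and the difference was -0.49 (standard error 0.06, adjusted p = 5.33e-04). Dusp6, which acts on ERK, had -0.64, Spry2, an inhibitor of receptor tyrosine kinase signalling, -0.44, and Dusp2 -0.38. Dusp5 and Dusp8 differed at both temperatures, with 51.8% and 61.1% in Cont. Spry2 was called in 1 of 12 fits with 1 array left out and not without SSBP1-KD Cont replicate 1, Dusp2 in 3 and Dusp6 in 6. The next brightest probe set of Dusp8 gave -0.63 (adjusted p = 0.194).

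The cyclic AMP response element is shown for the called genes with a smaller value that hold it, 3 of them in the group above and Zfp367, a zinc finger gene outside it, because it is a known site of stress and growth factor signalling. Its full palindrome TGACGTCA occurred in 2.72% of all genes with a window. It occurred in 3 of 15 called genes higher in Cont only, in 1 of 30 lower in HS and in 0 of 25 with a larger value. Capitals mark it in these stretches, on the strand of each gene.
Dusp1 (chr17:26508600-26508623, minus strand): agggcgggTGACGTCAccgcccgg
Errfi1 (chr4:150855011-150855034, plus strand): gcgggcgtTGACGTCAcgttgtcg
Zfp367 (chr13:64152463-64152486, minus strand): caggacgcTGACGTCActgccgcg
Dusp8 (chr7:142095376-142095399, minus strand): cgctccgcTGACGTCAcctgcccc

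Further genes were higher in Cont and not called in HS. Sgk1, a serum- and glucocorticoid-induced kinase, read 9.73, 9.62 and 9.64 in SSBP1-KD HS against 9.47, 9.37 and 9.48 in SCR HS, and 9.70, 9.66 and 9.74 in SSBP1-KD Cont against 8.94, 8.88 and 8.53 in SCR Cont. Every SSBP1-KD Cont array exceeded every heat-shocked SCR array, its heat effect did not pass in SSBP1-KD (0.97-fold, against 1.58-fold in SCR), and its difference was -0.69 (standard error 0.11, adjusted p = 0.0149). Myc, the transcription factor of cell growth counted above among the immediate-early genes, read 11.48, 11.57 and 11.49 in SSBP1-KD HS against 11.52, 11.51 and 11.36 in SCR HS, and 11.58, 11.49 and 11.62 in SSBP1-KD Cont against 11.06, 11.02 and 10.80 in SCR Cont. The 2 HS groups overlapped, SCR Cont lay below all other arrays, and the difference was -0.55 (adjusted p = 0.0322), called in 2 of 12 fits with 1 array left out and not without SSBP1-KD Cont replicate 1. Sox9, a transcription factor of cartilage, had 0.15 in HS and 0.64 in Cont. Ccn2, a YAP target that encodes connective tissue growth factor, had -0.06 in HS and 0.38 in Cont with a heat response difference close to the threshold (-0.44, adjusted p = 0.0462) and not called without SSBP1-KD Cont replicate 1. Smad7, an inhibitor of TGF-β signalling, was at -0.64, of which 67.8% lay in Cont. When an array was left out, the 21 genes higher in Cont only were less steady than 2 other classes with a smaller value. Of the 21, 4 were called in all 12 fits, against 9 of 18 lower in HS only and 17 of 20 changed at both temperatures. Among genes with a larger value, 2 of 12 higher in HS only and 3 of 13 lower in Cont only were. Without SCR Cont replicate 3 or SCR HS replicate 3 the class higher in Cont only held 7 genes, and without SSBP1-KD Cont replicate 1 it held 24. SCR Cont replicate 3 read lowest of its group for Sgk1 (8.53) and Myc (10.80).

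**Figure D3:**
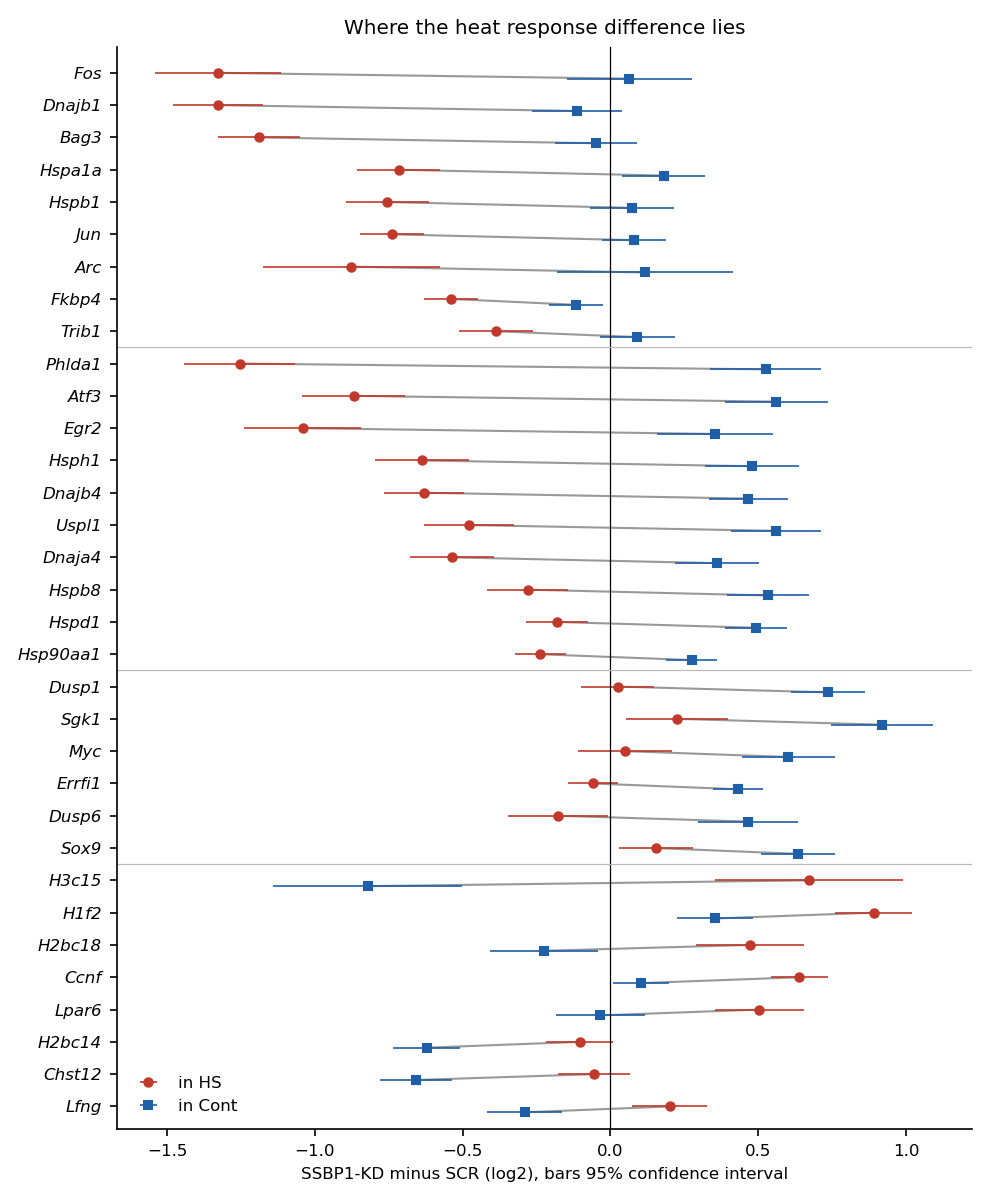
SSBP1-KD minus SCR (x axis, log2) in HS (red circles) and in Cont (blue squares) for 33 genes, with 95% confidence intervals that are not adjusted for the number of genes, and the horizontal distance from square to circle as the heat response difference. The blocks run from genes lower in HS only, through genes changed at both temperatures, to genes higher in Cont only and, at the bottom, genes with a larger value in SSBP1-KD.

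Some genes with a smaller value fell outside these level patterns, or belonged to none of the gene groups above. Socs3, a feedback inhibitor of cytokine signalling, and Nfkbiz, a regulator of NF-κB, were lower in SSBP1-KD at both temperatures and more so in HS (-0.87 in HS and -0.32 in Cont for Socs3, -0.62 and -0.19 for Nfkbiz). For Socs3 the next brightest probe set gave -0.08 (adjusted p = 0.792), and its call was lost without SSBP1-KD Cont replicate 1. Cyp2c55, a cytochrome P450 gene, was higher at both (0.66 in HS, 1.42 in Cont). Uspl1, a SUMO protease, read 10.81, 10.76 and 10.82 in SSBP1-KD HS against 11.13, 11.36 and 11.34 in SCR HS, and 10.22, 10.37 and 10.33 in SSBP1-KD Cont against 9.80, 9.83 and 9.61 in SCR Cont, and had -1.04 (adjusted p = 1.82e-04). Among 51 small nucleolar RNA genes, 43 lay below 0 with a median of -0.26, beside -0.005 over all genes. Of the 51, 2 were called, as were 0.492% of all genes. Heat lowered 21 of the 51 in SSBP1-KD and 14 in SCR, where it lowered 2.82% and 8.34% of all genes. Snord14e, which is processed from an intron of Hspa8, rose 4.18-fold in SSBP1-KD and 6.77-fold in SCR (-0.70, adjusted p = 0.0283, called in 5 of 12 fits with 1 array left out), while the heat effect on Hspa8 was 0.08 in SSBP1-KD and 0.19 in SCR. Snora23 was higher in Cont and had -0.64. Ppp1r10, a nuclear subunit of protein phosphatase 1, changed in opposite directions, with a heat effect of -0.22 in SSBP1-KD and 0.32 in SCR, both called.

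Of the lists, replication-dependent histones held the most genes called for a larger value, here less of a fall, with 5 of the 36. Heat lowered 10 of 27 measured replication-dependent histone genes in SSBP1-KD and 22 in SCR, and raised 0 in either. Over all genes it lowered 2.82% in SSBP1-KD and 8.34% in SCR. The heat effect was higher in SSBP1-KD than in SCR for 26 of the 27, with medians of -0.25 in SSBP1-KD and -0.66 in SCR, and the median heat response difference was 0.36. Of the 27, 5 were called for a larger value and 0 for a smaller one, where 0.181% and 0.311% of all genes were. In HS 8 were higher and 4 lower in SSBP1-KD, where 14.3% and 14.4% of all genes were. In Cont 5 were higher and 16 lower, where 14.6% and 16.5% of all genes were. These genes are near-identical copies in clusters, so a probe set can read several of them, and their signals are not independent.

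H3c15, a histone H3 gene, had the most positive value of all genes, 1.49 (standard error 0.21, adjusted p = 0.0042). It read 8.80, 8.83 and 8.68 in SSBP1-KD HS against 8.16, 7.95 and 8.18 in SCR HS, and 8.57, 9.18 and 9.05 in SSBP1-KD Cont against 9.81, 9.77 and 9.69 in SCR Cont. SSBP1-KD HS lay above SCR HS and SSBP1-KD Cont below SCR Cont on every array, with replicate 1 of SSBP1-KD Cont the lowest, and the gene was still called without that array. H1f2, a linker histone gene, read 11.06, 10.96 and 11.04 in SSBP1-KD HS against 10.26, 10.05 and 10.07 in SCR HS, and 11.04, 11.13 and 11.09 in SSBP1-KD Cont against 10.69, 10.81 and 10.70 in SCR Cont. SSBP1-KD was higher at both temperatures and more so in HS, and the fall with heat seen in SCR (-0.60) was -0.07 in SSBP1-KD. H2bc14 read 11.53, 11.57 and 11.52 in SSBP1-KD HS against 11.72, 11.59 and 11.61 in SCR HS, and 11.86, 11.90 and 12.05 in SSBP1-KD Cont against 12.58, 12.59 and 12.51 in SCR Cont. Here the HS levels were close (-0.10, adjusted p = 0.202) and SSBP1-KD Cont was -0.62 relative to SCR, so that the difference of 0.52 lay in Cont. H2bc18 (0.70) was called higher in HS only and H4c9 (0.44) lower in Cont only. Their other comparisons lay near the threshold, with -0.23 for H2bc18 in Cont (adjusted p = 0.0712) and 0.15 for H4c9 in HS (adjusted p = 0.0853). Called members of 1 family thus fell into different classes of calls, and the members were not tested against each other.

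The octamer ATTTGCAT, a known element of histone H2B promoters, is shown for the 2 called H2B genes, each of which holds it on its own strand (capitals). It occurred on either strand in 1.9% of all genes with a window.
H2bc14 (chr13:21722011-21722034, plus strand): tcgtctctATTTGCATaacagcgt
H2bc18 (chr3:96269644-96269667, plus strand): gaaacctcATTTGCATacaagctc

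Among the other genes with a larger value, Ccnf, the F-box protein cyclin F, read 10.94, 10.91 and 10.82 in SSBP1-KD HS against 10.32, 10.19 and 10.25 in SCR HS, and 11.09, 11.14 and 11.11 in SSBP1-KD Cont against 10.96, 11.04 and 11.02 in SCR Cont. SCR HS lay apart from the other groups, and the difference of 0.54 (standard error 0.06, adjusted p = 8.09e-04) was 0.64 in HS and 0.10 in Cont. Lpar6, a lysophosphatidic acid receptor, was higher in SSBP1-KD HS only (0.50 in HS, -0.03 in Cont) and was not called without SSBP1-KD Cont replicate 1. Chst12, a chondroitin sulfotransferase, was lower in SSBP1-KD Cont only, reading 10.32, 10.20 and 10.31 in SSBP1-KD HS against 10.34, 10.31 and 10.34 in SCR HS, and 10.50, 10.52 and 10.52 in SSBP1-KD Cont against 11.11, 11.11 and 11.30 in SCR Cont. Lfng, which glycosylates Notch receptors, was higher in HS (0.20) and lower in Cont (-0.29). Krtap4-16, a keratin-associated protein gene, rose with heat in SSBP1-KD (2.33-fold), while its heat effect in SCR did not pass (1.10-fold), from a dim probe set whose HS groups differed by 1.05 and whose Cont groups overlapped. Of the 36 genes, 8 were called in all 12 fits with 1 array left out, among them H3c15, H1f2, H2bc14, Ccnf, Chst12 and Krtap4-16, and 22 without SSBP1-KD Cont replicate 1.

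**Figure D4:**
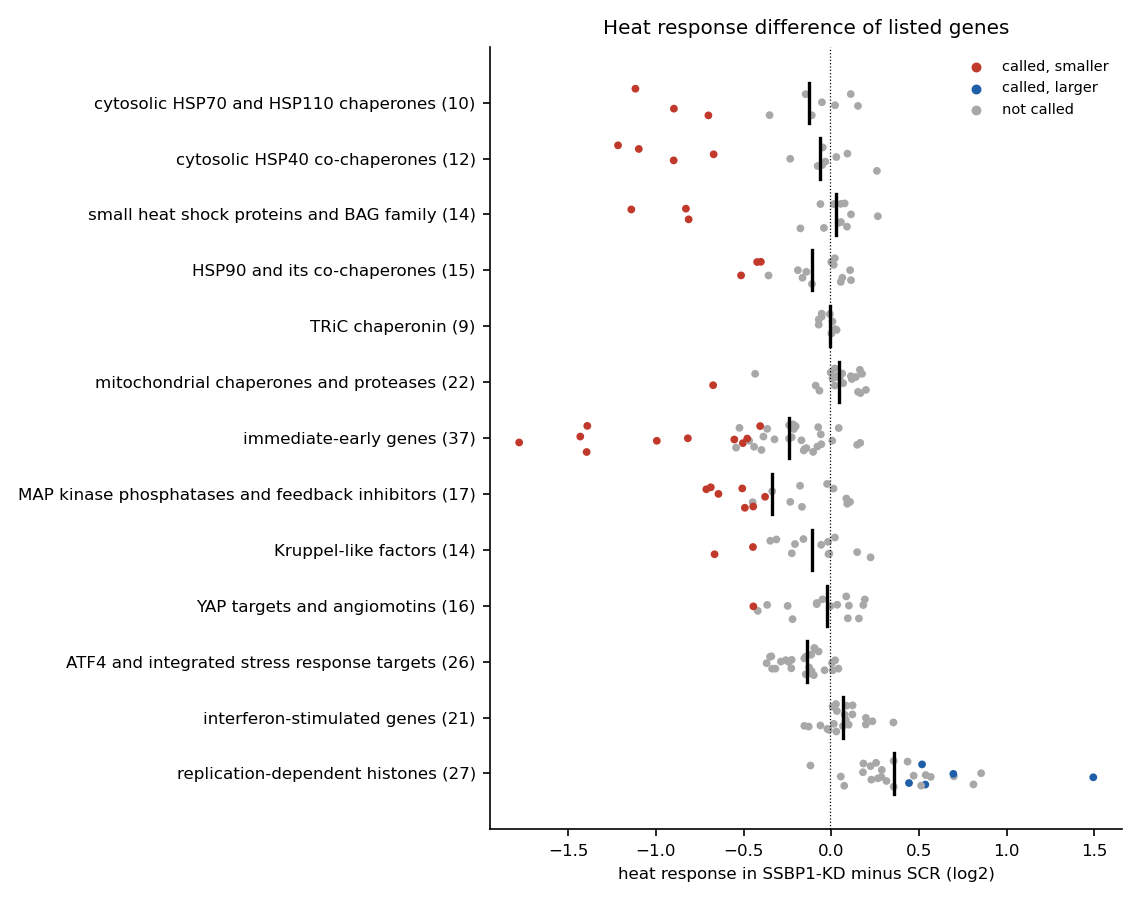
Heat response in SSBP1-KD minus SCR (x axis, log2) for the measured members of 13 gene lists, 1 point per gene, with called genes in colour, the list median as a black bar and the median of all genes, -0.005, as a dotted line. Called chaperone, immediate-early and MAP kinase phosphatase genes lie left of 0, and 26 of 27 histone genes lie right of it.

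Other lists held few calls or none. Over all genes 0.492% were called, so a list of this size without a call is near that share and is not set apart by it. No gene was called among 9 TRiC chaperonin genes, 26 ATF4 and integrated stress response targets, 24 ER chaperones and unfolded-protein response genes, 21 interferon-stimulated genes, 22 cholesterol and fatty acid synthesis genes, 31 collagen and matrix genes, 18 genes of mitochondrial DNA replication and transcription, 78 respiratory chain genes, 77 mitochondrial ribosomal protein genes or 48 proteasome subunits. Single or paired calls, all for a smaller value, occurred among 14 Kruppel-like factors (Klf6 and Klf10), 16 YAP targets (Ccn2), 16 NRF2 targets, 9 ubiquitin and autophagy genes (Uspl1) and 15 genes of the permeability pore and outer mitochondrial membrane (Mcl1). The calls on the YAP and NRF2 lists were lost without SSBP1-KD Cont replicate 1. The ATF4 targets lay below 0 for 22 of 26, with a median of -0.14, beside -0.005 over all genes. Some of these lists differed strongly at both temperatures without a called change in heat response, with 17 of 21 interferon-stimulated genes lower in SSBP1-KD HS and 18 in Cont, and 17 of 22 cholesterol genes lower in HS and 19 in Cont. Over all genes 14.4% were lower in HS and 16.5% in Cont. Tfam (-0.13), the pore genes Vdac1 (0.02), Vdac2 (0.04) and Vdac3 (0.07) and Smarca4 (0.07), which encodes the chromatin remodelling ATPase BRG1, were not called (adjusted p = 0.88, 0.953, 0.913, 0.857 and 0.773).

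Choosing heat-responsive genes on the same SCR arrays favours genes whose SCR response is overestimated. They were therefore also chosen on the HSF1-KD arrays, which do not enter the heat response difference. Those arrays did enter the shared estimate of spread behind the p-values, so choice and calls are not fully independent. This choice also leaves out genes that heat did not raise or lower in HSF1-KD cells, so the values describe the chosen genes only. Heat raised 61 genes over 1.5-fold in HSF1-KD cells (adjusted p under 0.05). Their median heat effect was 0.51 in SSBP1-KD and 0.79 in SCR, the heat response difference lay below 0 for 53 of the 61 (median -0.30), and it was called smaller for 12 (19.7%) and larger for 0. Over all genes 0.311% were called smaller and 0.181% larger. Without SSBP1-KD Cont replicate 1, 54 lay below 0 (median -0.27) and 12 were called. In HS SSBP1-KD was higher for 12 of the 61 and lower for 12, and in Cont it was higher for 33 and lower for 3. Over all genes it was higher for 14.3% and lower for 14.4% in HS, and 14.6% and 16.5% in Cont. The median difference from SCR was 0.07 in HS and 0.31 in Cont. None of the 14 called chaperone genes was in this set. Of 118 genes raised by heat on the SCR arrays, SSBP1-KD was higher in HS for 12 and lower for 51, with medians of -0.18 in HS and 0.29 in Cont. Of 67 chosen on the mean of SSBP1-KD and SCR, it was higher in HS for 8 and lower for 30, with medians of -0.18 in HS and 0.30 in Cont. For 105 genes that heat lowered in HSF1-KD, the median effect was -0.69 in SSBP1-KD and -0.83 in SCR, the heat response difference lay below 0 for 34 (median 0.14), and 7 (6.67%) were called larger and 0 smaller. Without SSBP1-KD Cont replicate 1, 44 lay below 0 (median 0.08), and 6 were called larger and 1 smaller. Many of the 105 were microRNA or small nucleolar RNA genes, none of them called with all arrays. The 7 called larger included the histone genes H3c15, H4c9 and H2bc14.

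**Figure D5:**
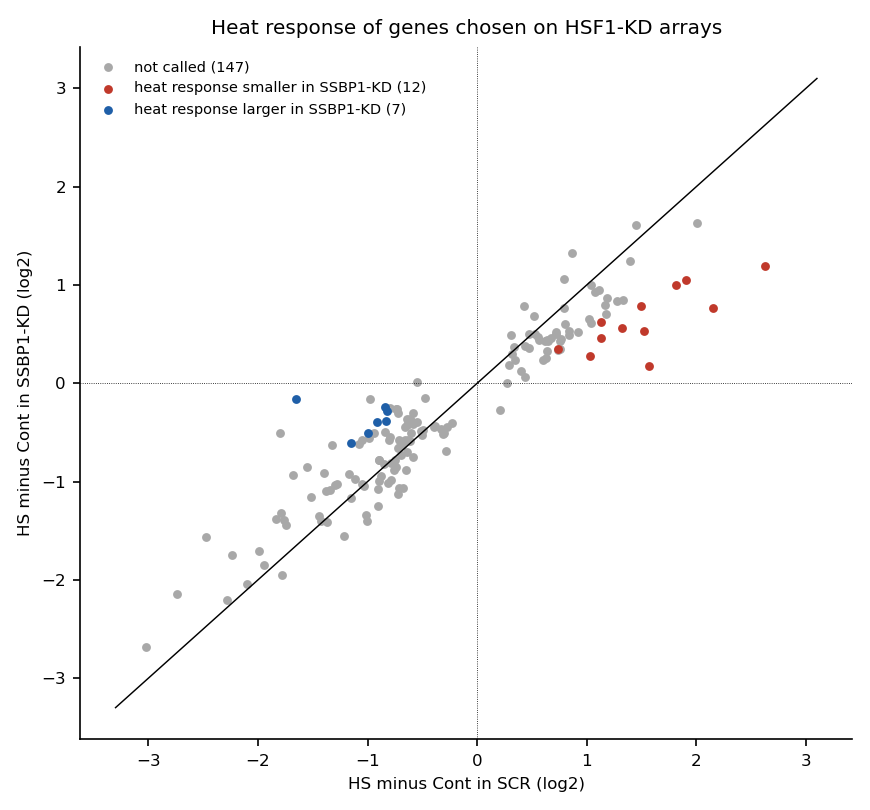
Heat effect (HS minus Cont, log2) in SSBP1-KD (y axis) and SCR (x axis) of 61 genes raised and 105 lowered by heat on the HSF1-KD arrays, with called genes in colour. Raised genes lie mostly below the diagonal of equal response, and the 12 called ones lie there with no called gene on the other side.

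SSBP1-KD was also compared with the arrays labelled HSF1-KD, whose knockdown was not checked on Hsf1 RNA because no probe set carried Hsf1 as its only symbol. The heat effect differed between SSBP1-KD and HSF1-KD for 68 genes (0.341%), larger in SSBP1-KD for 58 (0.291%) and smaller for 10 (0.0502%). Of the 98 genes with a heat response difference from SCR, 20 were among them, and both comparisons use the same SSBP1-KD arrays. Hspa1a rose 10.7-fold in SSBP1-KD and 1.47-fold in HSF1-KD (log2 difference 2.86, adjusted p = 2.79e-10), and Dnajb1, Hsph1, Hspb1, Bag3 and Dnaja4 were also larger in SSBP1-KD, by 1.63, 1.15, 1.05, 0.77 and 0.60. The other 8 called chaperone genes did not pass this test, with all 14 between 0.15 and 2.86 and thus above 0. Jun ran the other way, with a rise of 2.00-fold in SSBP1-KD and 2.92-fold in HSF1-KD (log2 difference -0.55, adjusted p = 0.0036), as did Errfi1 (-0.30), Ppp1r10 (-0.49) and Tas2r143 (-0.86). Egr1, which is not one of the 98, had -0.99 (adjusted p = 0.000147). The 10 called immediate-early genes ranged from -0.61 to 0.47 in this comparison, and Jun alone of them passed.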

How the data were processed

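RNA of 18 samples was measured on Affymetrix whole-transcript arrays. The authors deposited log2 values, 1 for each probe set on each array, and their processing notes name RMA and Partek 6.5; the order of steps is not given in the sources used here. Nothing was renormalized. The number of arrays limits the precision, as does the spread of single arrays such as SSBP1-KD Cont replicate 1. Of 35557 probe sets, 21789 had 1 gene symbol, 1621 several and 12147 none; 21701 were matched to RefSeq names (GRCm38.p6). Each of 19936 genes was read from its brightest probe set.

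The fit used lmFit and eBayes (limma 3.58.1, R 4.3.3) on all probe sets, with 1 mean for each of 6 groups, 12 residual and 2.36 prior degrees of freedom, and p-values were adjusted over all probe sets by the Benjamini-Hochberg method. A gene was called, or is said to be higher or lower, at an adjusted p under 0.05. The fit was tested on simulated data. Genes named were the 15 most negative and 15 most positive called genes with a gene-like symbol, up to 6 called members of each list and of each class, and genes the paper names; the remaining called genes and Egr1, Hspa8 and Ppp1r10 were chosen after their values were seen. The comparison, lists and members were chosen with earlier results of these data known. Replicate numbers did not pair the arrays. Figures were drawn with matplotlib 3.10.9.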

Additional observations from a re-analysis of the deposited data

Results flagged for a closer look

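The heat response itself differed between SSBP1-KD and SCR cells for 98 genes by the interaction test described above, and between SSBP1-KD and HSF1-KD cells for 68 genes.

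In 4 genes the heat effect passed the test in both kinds of cell with opposite signs. Mir376a had 0.45 in SSBP1-KD and -0.32 in SCR (difference 0.77) from one of the dimmest probe sets, with group means of 3.42 to 3.98 on the log2 scale. Olfr290, also dim, had -0.26 in SSBP1-KD and 0.22 in SCR (difference -0.48). Ppp1r10 had -0.22 in SSBP1-KD and 0.32 in SCR (difference -0.54), with group means of 10.85 to 11.17. Praf2 had 0.17 in SSBP1-KD and -0.17 in SCR (difference 0.34), with group means of 11.08 to 11.47.

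Outside the genes with a single symbol, 13768 probe sets carry several symbols or none. Of these 53 were called for the heat response difference, 43 with a smaller value in SSBP1-KD and 10 with a larger one, and none was named.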

How the results depend on the processing

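With 1 array left out in turn, 33 to 83 genes had a smaller value (62 with all arrays) and 10 to 38 a larger one (36). The smaller count fell by over 1.5 times without SSBP1-KD HS replicate 1 (40), 2 (37) or 3 (36), SCR HS replicate 2 (35) or 3 (33), SSBP1-KD Cont replicate 2 (36) or SCR Cont replicate 3 (37), and the larger count did so without any array but SCR HS replicate 1 (38) and SSBP1-KD Cont replicate 1 (29). The Cont difference was called for 4789 to 6073 genes (6207) and the HS difference for 4562 to 6257 (5719). Genes with a smaller value numbered 9 to 29 for those lower in HS only, 7 to 24 for higher in Cont only and 16 to 26 for both, and genes with a larger value 2 to 15 for higher in HS only and 3 to 11 for lower in Cont only.

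Among the probe sets brighter than the median one the counts were 127 smaller and 126 larger, with 34, 40 and 31 in the 3 smaller classes in the order above and 40 and 42 in the 2 larger ones. With array weights they were 181 and 154, then 54, 64, 38, 45 and 61. With a trended and robust prior they were 94 and 75, with 33 smaller genes higher in Cont only, and 23 and 30 in the larger classes. On the 12 SSBP1-KD and SCR arrays alone they were 29 and 5, with 11 and 3 smaller genes lower in HS only and higher in Cont only, and 2 and 2 in the larger classes. Of the 62 and 36 genes, 28 and 5 were among these. With array medians set to 1 value 49 were smaller and 48 larger, 21 of these lower in Cont only, and with quantile normalization repeated 19 larger genes were higher in HS only. Replicate numbers did not pair the arrays (2 of 18 same-number pairs correlated above 0.1). With the replicate block the counts were 49 smaller and 18 larger, with 7 and 4 in the larger classes.

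The methods' t-test with Benjamini-Hochberg adjustment gave 32 smaller and 23 larger, 3156 genes in Cont, 8 smaller genes higher in Cont only, 8 changed at both and 6 larger genes lower in Cont only. A fold above 1.5 with an unadjusted p under 0.05 gave 16 larger genes, 627 genes in Cont, 634 in HS, and classes of 5, 1, 2 and 7. The same thresholds with the methods' t-test, added after seeing the data, gave 41 and 13, 619 and 631, and classes of 4, 0, 2 and 7. Chosen on the mean of SSBP1-KD and SCR or on SCR arrays, 44.8% and 37.3% of the heat-raised genes had a smaller value.

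On the next brightest probe set the HS difference of Mir99ahg was 0.0729 and the Cont difference of Socs3 0.013, opposite in sign to the brightest. The cause of these changes was not tested. The number of arrays, the spread of single arrays and signals near background limit what could be called.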
